A study of Homo sapiens with 24 samples.

Results

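The HNRNPC knockdown experiment set MDA-MB-231 cells labelled as an HNRNPC knockdown (sgHNRNPC) against cells that carried a control guide (sgCTRL). RNA and ribosome footprints were each read in 3 replicates per group, which gives 12 of the 24 libraries of the study. MDA-MB-231 is a human triple-negative breast cancer line, labelled here as poorly metastatic. The study as a whole compared translation efficiency between breast cancer cells of differing metastatic capacity. Both groups were grown in DMEM with serum and lysed with cycloheximide, which holds ribosomes on mRNA, and RNA was taken from the same lysates. The form of CRISPR, the number of guides and whether the cells were clonal: none of these is given in the sources used here. Nothing in the labels tells if each replicate was its own culture, and p-values thus reflect the spread between libraries, which may be technical. The deposited table held 10767 transcripts, and the 8283 with a mean normalized signal of at least 10 in both the 6 RNA and the 6 footprint libraries were tested.

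HNRNPC is an abundant nuclear protein that coats nascent pre-mRNA at runs of uridine, where it competes with the splicing factor U2AF2 and keeps cryptic exons, many of them from Alu elements, out of mature mRNA. It also takes part in the choice of 3' ends. Ribosome profiling sequences the mRNA fragments that translating ribosomes protect from nuclease, so footprints track how much of an mRNA is being read, and footprints relative to RNA, called translation efficiency, track how heavily each copy is occupied.

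Gene names need a caveat. The table lists Ensembl transcript IDs alone, and no table used here pairs them with symbols, so names were assigned from general knowledge of widely used IDs and only where held to be certain. This named 980 of the 8283 tested transcripts, 11.8%. As a check, the named IDs within 1 numbering block of Ensembl that runs along chromosomes stood in falling order of RefSeq gene start in 153 of 153 neighbouring pairs, over 160 IDs on 7 chromosomes. The other transcripts are unnamed here, not unchanged, and an error in a single name remains possible. PDLIM5, which was to be described in every library, could not be assigned with certainty and was not analysed here.

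RNA signal summed to 26071870 to 26617050 in the control libraries and to 23607900 to 23863260 in the knockdown libraries, and footprint signal to 720575 to 753066 and 669584 to 724090. RNA replicates were tighter than footprint replicates, with a median SD on the log2 scale of 0.072 and 0.070 against 0.175 and 0.173 for control and knockdown.

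The targeted gene itself checks the labels. HNRNPC RNA (ENST00000420743) had a normalized signal of 10556, 10390 and 10888 in the control replicates and of 1393, 1304 and 1509 in the knockdown replicates. It fell by 2.92 on the log2 scale (SE 0.05, limma adjusted p = 7.602e-24), to 0.132 of control. HNRNPC footprints were 447, 487 and 439 in control cells and 103, 103 and 110 in knockdown cells, a fall by 2.11 (SE 0.10, limma adjusted p = 1.296e-16). The groups did not overlap in either assay, and the knockdown left a measurable share of the transcript. Footprints fell less than RNA, so the efficiency of the remaining HNRNPC transcripts rose by 0.82 (SE 0.10, limma adjusted p = 0.0001469).

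PABPC4, a cytoplasmic poly(A)-binding protein, moved the other way. Its RNA (ENST00000372858) was 6611, 6330 and 6735 in control and 8456, 8340 and 7899 in knockdown cells, a rise by 0.33 (SE 0.04, limma adjusted p = 1.447e-07). Its footprints were 131, 139 and 115.9 against 210, 200 and 205, a rise by 0.67 (SE 0.10, limma adjusted p = 7.625e-06). Neither assay showed overlap between the groups. The difference in efficiency was 0.34, with a 95% interval of 0.13 to 0.55, and did not pass (limma adjusted p = 0.0554).

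**Figure D1:**
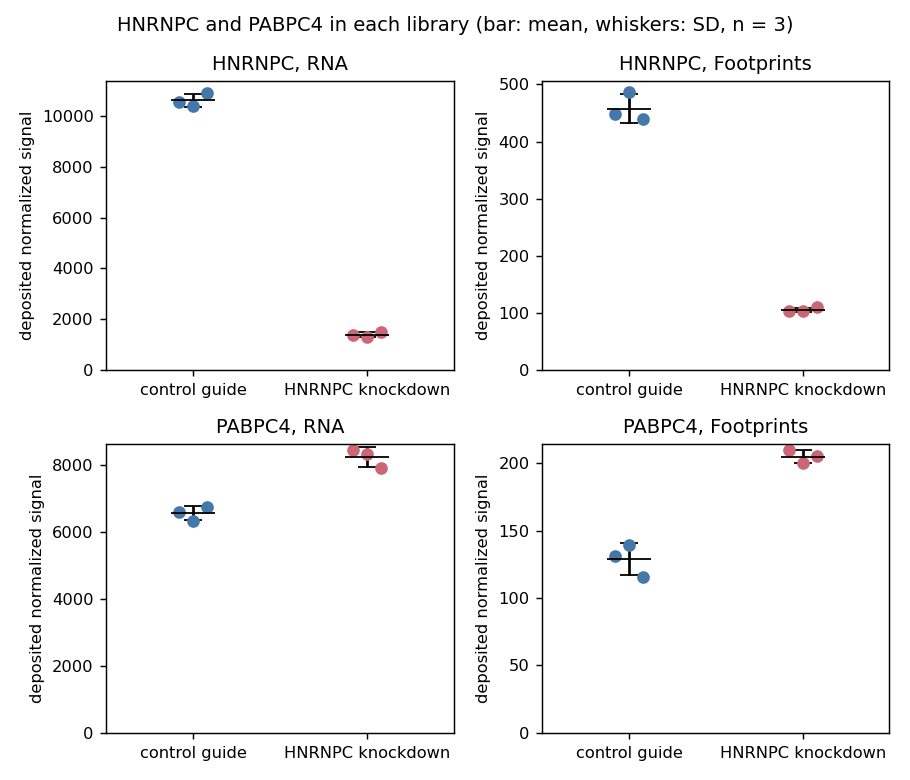
Deposited normalized signal (y axes, from 0) of HNRNPC and PABPC4 in each control guide and HNRNPC knockdown library, for RNA and footprints; points are libraries, the bar is the mean and whiskers the SD (n = 3). HNRNPC knockdown libraries sit between 1304 and 1509 in RNA, below all control libraries, and PABPC4 knockdown libraries sit above all control libraries in both assays.

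RNA differed for most transcripts and efficiency for few. At a limma adjusted p under 0.05, RNA differed for 6084 of 8283 transcripts (73.5%), with 2323 higher (28%) and 3761 lower (45.4%) in knockdown cells. Footprints differed for 2998 (36.2%), with 1286 higher (15.5%) and 1712 lower (20.7%). Efficiency differed for 452 (5.46%), with 308 higher (3.72%) and 144 lower (1.74%). Efficiency SEs and p-values rest on a variance shared by RNA and the more variable footprints, and may be too small. The efficiency count was the least stable of the 3: it was 249, 182, 256, 370, 178 and 200 without control replicates 1, 2 and 3 and knockdown replicates 1, 2 and 3, and 75 when footprints were paired with RNA of the same lysate by replicate number. Most RNA differences were small: 180 transcripts (2.17%) rose and 464 (5.6%) fell at least 2-fold in RNA, 293 (3.54%) and 314 (3.79%) in footprints, and 30 (0.362%) and 38 (0.459%) in efficiency. The median change over all tested transcripts was -0.11 in RNA, -0.04 in footprints and 0.09 in efficiency on the log2 scale. Setting the RNA and footprint medians to 0 turned the RNA split from 38.2% to 49.6% higher and the efficiency split from 68.1% to 44.8% higher, so the excess of RNA falls and efficiency rises rests on the deposited scaling. The RNA counts and medians of gene lists below are to be read against the 28% higher, the 45.4% lower and the median of -0.11 over all transcripts, and their footprint counts and medians against 15.5%, 20.7% and -0.04. For efficiency the matching shares are 3.72% higher and 1.74% lower, with a median of 0.09. The lists and their members were chosen with earlier results of these data known, so their counts describe the lists and carry no test.

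**Figure D2:**
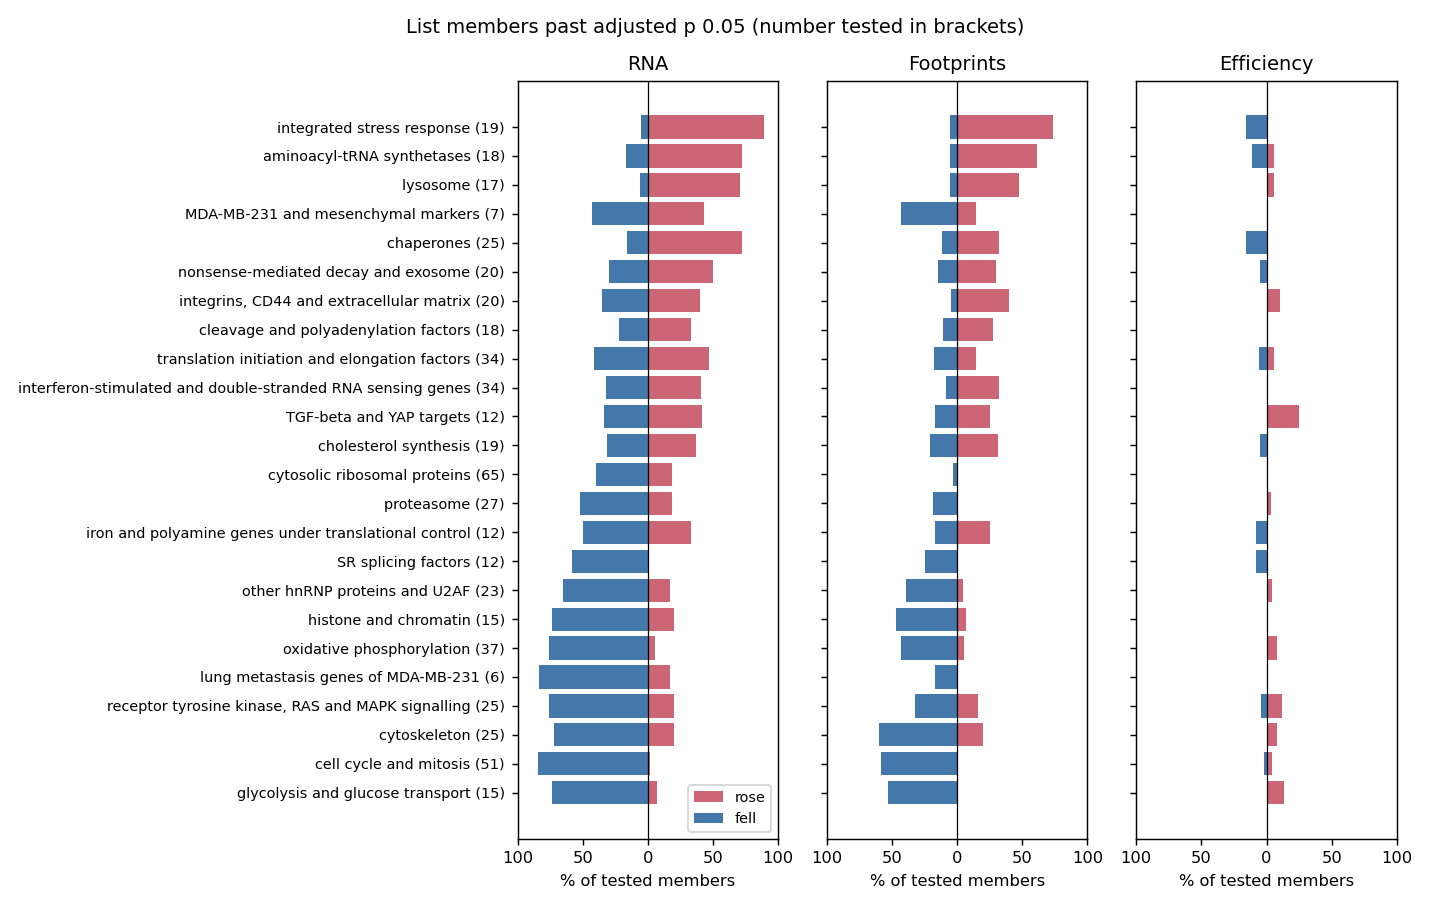
Share of each gene list's tested members (number in brackets) that rose (red, right) or fell (blue, left) at a limma adjusted p under 0.05, for RNA, footprints and efficiency; lists are ordered by their median RNA change. In RNA, 17 of 19 integrated stress response members rose and 43 of 51 cell cycle members fell, while in efficiency no list had more than 4 members past the threshold at the deposited scaling.

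Genes of the integrated stress response rose together. In this response, kinases that phosphorylate the initiation factor eIF2 slow general translation while the transcription factor ATF4 is made and turns on genes for amino acid supply and protein folding. Of 19 members tested, 17 rose and 1 fell in RNA, with a median change of 0.77, and 14 rose and 1 fell in footprints, with a median of 0.81. ATF4 RNA was 15933, 15556 and 14833 in control and 26759, 26162 and 25845 in knockdown cells (rise by 0.77, SE 0.04, limma adjusted p = 2.561e-15). ATF4 footprints were 44.0, 54.0 and 56.1 against 115, 112 and 96.7 (rise by 1.06, SE 0.14, limma adjusted p = 2.722e-07). Both assays separated the groups fully.

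Genes that ATF4 is known to act on, or that respond with it, rose as well. ASNS, which makes asparagine, had RNA of 758, 627 and 670 in control and 2519, 2473 and 2602 in knockdown cells, 3.70 times control (limma adjusted p = 1.801e-17), and its footprints rose by 1.57 (SE 0.11). ATF5, a related transcription factor, rose by 1.86 in RNA (SE 0.06) and 1.61 in footprints (SE 0.36). SLC7A5, a subunit of a large neutral amino acid transporter, rose by 1.89 in RNA and 1.80 in footprints, and SLC1A5, a glutamine transporter, by 1.51 and 1.68. SESN2, a stress-induced regulator of mTORC1, rose by 1.63 and 1.74. ATF3, a stress-induced transcription factor, gave the largest RNA rise of any named transcript, from 286, 309 and 231 to 1559, 1552 and 1533 (rise by 2.50, SE 0.10, limma adjusted p = 4.545e-17), but its footprints rose by only 1.12 (SE 0.33). The groups did not overlap in either assay for any of these genes.

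The aminoacyl-tRNA synthetases, which load tRNAs with amino acids, rose alongside. Of 18 tested, 13 rose and 3 fell in RNA (median 0.42) and 11 rose and 1 fell in footprints (median 0.45). AARS1, for alanine, had RNA of 3590, 4016 and 4049 against 8833, 8897 and 8970 (rise by 1.20, SE 0.05). IARS1, for isoleucine, had RNA of 7479, 7224 and 7498 against 16200, 16159 and 16680 (rise by 1.14, SE 0.04). WARS1 and YARS1, for tryptophan and tyrosine, rose by 1.13 and 0.80. FARSB, a phenylalanine synthetase subunit chosen after its values were seen, fell by 0.61 in RNA and 0.82 in footprints.

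**Figure D3:**
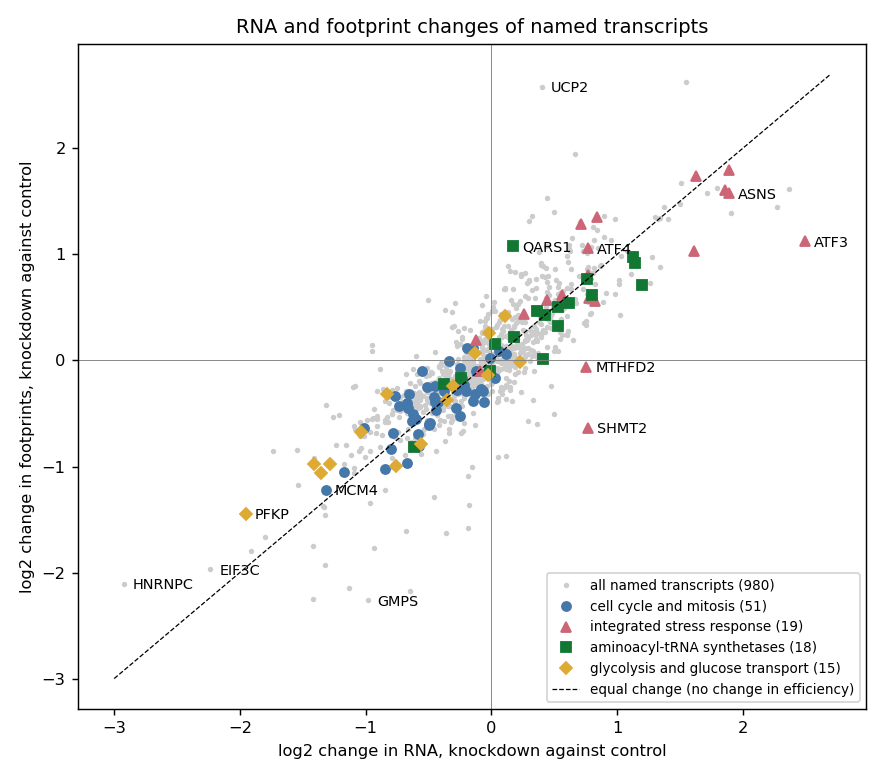
Log2 change in RNA (x axis) against log2 change in footprints (y axis), knockdown against control, for 980 named transcripts (grey) with 4 gene lists in colour; the dashed line marks equal change. Stress response and synthetase genes lie mostly up and right, cell cycle and glycolysis genes down and left, and SHMT2 and MTHFD2 stand well below the line.

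Promoters of the genes that rose were read for the C/EBP-ATF response element through which ATF4 acts. RefSeq promoters (GRCh38.p14, 250 bases before to 50 after the start) were matched for 16 of the 17 risen stress response genes, 12 of the 13 risen synthetases and 35 of the 43 fallen cell cycle genes, on both strands. In all, 4 motifs were searched, all chosen after these groups were seen to move. The 9-letter TGATGNAAT was in 0 of 16, 1 of 12 and 0 of 35, against 0.991% of all 35116 promoters in the table. After that, the shorter TGATGNAA, which contains every match of the longer one, was searched, and it was in 6 of 16 (37.5%), 6 of 12 (50%) and 0 of 35, against 3.62% of all promoters and 2.59% of those of 810 named tested genes. TTTGAA, the core of the cell cycle homology region, was in 1 of 16, 1 of 12 and 14 of 35 (40%), against 15.2% and 14.3%. CCAAT was in 11 of 16 (68.8%), 6 of 12 (50%) and 25 of 35 (71.4%), against 34.6% and 48.4%. Since the shorter motif followed a search that found almost nothing, its shares are a description of these promoters and carry no test. Matches in 6 genes are shown on the strand of the gene, with TGATGNAA or its reverse complement in capitals, because they let the letters be compared between risen genes of both groups.
ASNS, chr7:97872459-97872486, minus strand: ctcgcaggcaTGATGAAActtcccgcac
CEBPG, chr19:33374061-33374088, plus strand: gcgcggcgtcTGATGCAAcctgccggca
CHAC1, chr15:40953252-40953279, plus strand: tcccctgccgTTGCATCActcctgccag
HERPUD1, chr16:56931956-56931983, plus strand: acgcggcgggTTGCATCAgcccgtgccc
AARS1, chr16:70289676-70289703, minus strand: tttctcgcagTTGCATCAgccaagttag
MARS1, chr12:57488054-57488081, plus strand: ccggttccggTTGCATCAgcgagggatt
The matches began 68 bases before the annotated start in ASNS, 42 in CEBPG, 209 in CHAC1, 176 in HERPUD1, 187 in AARS1 and 4 in MARS1. RNA of CEBPG, CHAC1 and HERPUD1, a partner of ATF4, a glutathione-degrading enzyme and a membrane protein of the endoplasmic reticulum, rose by 0.77, 1.61 and 0.82. RNA of MARS1, which loads tRNA with methionine, rose by 0.76. A match is no evidence that a factor binds there.

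Mitochondrial one-carbon enzymes of the same response did not follow in translation. SHMT2, which makes glycine from serine in mitochondria, had RNA of 7378, 7324 and 7054 in control and 12312, 12620 and 12117 in knockdown cells, a rise by 0.77 (SE 0.04). Its footprints went from 447, 418 and 447 to 265, 275 and 303, a fall by 0.64 (SE 0.10). RNA and footprints thus separated the groups in opposite directions, and efficiency fell by 1.40 (SE 0.09, limma adjusted p = 2.225e-07). MTHFD2, the next enzyme of that pathway and chosen after its values were seen, rose by 0.75 in RNA while its footprints, 89.0, 70.6 and 74.7 against 77.7, 70.8 and 75, overlapped. MTHFD2 efficiency fell by 0.82 (SE 0.13, limma adjusted p = 0.001466), but the call was lost with footprints paired to RNA by lysate (limma adjusted p = 0.05238).

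GDF15, a secreted stress cytokine named for the size of its change, rose by 2.37 in RNA from low values of 31.0, 52.6 and 15.8 to 203, 142 and 135.

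Of 25 chaperones, 18 rose and 4 fell in RNA (median 0.23), and 8 rose and 3 fell in footprints (median 0.12). FKBP4, a co-chaperone of HSP90, rose by 1.01 in RNA and 0.72 in footprints. HSP90AB1, HSPA9 and HSPD1, chaperones of the cytosol and of mitochondria, rose by 0.65, 0.76 and 0.61 in RNA. Efficiency fell for 4 of the 25 chaperones with all libraries, beside 1.74% of all transcripts. The count was 0 without control replicate 1, control replicate 2, knockdown replicate 1 or knockdown replicate 2. It was 2 without control replicate 3, 7 without knockdown replicate 3, and 0 with footprints paired to RNA by lysate.

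Of 17 lysosomal genes, 12 rose and 1 fell in RNA (median 0.30). In footprints 8 rose and 1 fell (median 0.53), and 5 rose without control replicate 1 or without knockdown replicate 2. GRN (progranulin), NPC1 (cholesterol export) and CTSA (a carboxypeptidase) rose by 0.89, 0.95 and 0.76 in RNA. CTSD, an aspartic protease, was the exception and fell by 1.26. NEU1, a lysosomal sialidase that was not on the list, rose by 1.80 in RNA and 1.63 in footprints.

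Cell cycle genes fell as a group. Of 51 tested, 43 fell and 1 rose in RNA (median -0.44), and 30 fell and none rose in footprints (median -0.35). In efficiency 2 rose and 1 fell, near the shares of 3.72% and 1.74% over all transcripts, and 0 did either with footprints paired to RNA by lysate. MCM4, a subunit of the replicative helicase, had RNA of 5342, 5149 and 5340 in control and 2080, 2106 and 2160 in knockdown cells (fall by 1.32, SE 0.05, limma adjusted p = 3.864e-18). ANLN, which organises the cleavage furrow, fell by 1.17 in RNA and 1.05 in footprints, and UBE2C, a ubiquitin-conjugating enzyme of mitotic exit, by 0.78 in RNA. FOXM1, a transcription factor of mitotic genes, fell by 0.76 in RNA. CDC20, an activator of mitotic exit chosen after its values were seen, was the 1 rise at the deposited scaling, by 0.12, with an adjusted p of 0.06606 without control replicate 1, 0.07203 without knockdown replicate 1 and 0.06404 with no variance trend. Under TMM scaling 4 cell cycle genes rose and 36 fell, and under quantile normalization 5 rose and 29 fell.

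DNA repair and replication enzymes were among the largest falls of named transcripts. LIG1, the replicative DNA ligase, had RNA of 3225, 3137 and 3454 against 876, 900 and 825 (fall by 1.91, SE 0.06) and footprints lower by 1.80. FANCA and FANCD2 of the Fanconi anaemia pathway fell by 1.32 and 0.64 in RNA but by 1.93 and 2.18 in footprints. MRE11, a nuclease of double-strand break repair, fell by 1.13 in RNA and 2.15 in footprints. No repair list was tested, so these are single genes named for their size.

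Energy metabolism fell too. Of 15 genes of glycolysis and glucose transport, 11 fell and 1 rose in RNA (median -0.56), and 8 fell and none rose in footprints (median -0.37). PFKP, the platelet phosphofructokinase, had RNA of 9487, 9562 and 9975 against 2456, 2549 and 2489 (fall by 1.95, SE 0.04, limma adjusted p = 3.245e-22). PFKL, the liver form of that enzyme, fell by 1.41, and ENO2 and PGAM1, later enzymes of the pathway, by 1.35 and 1.03. Of 37 genes of oxidative phosphorylation, 28 fell and 2 rose in RNA (median -0.33), and 16 fell and 2 rose in footprints (median -0.23). That list includes UCP2, a mitochondrial carrier described below, which was 1 of the 2 rises in each assay. ATP5F1A, a subunit of ATP synthase, fell by 1.09 in RNA and 1.06 in footprints, and UQCRC1 and SDHA, of complexes III and II, by 0.84 and 0.62 in RNA.

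Of 25 cytoskeletal genes, 18 fell and 5 rose in RNA (median -0.40). In footprints 15 fell, but 7, 6 and 8 did so without control replicate 1, control replicate 2 and knockdown replicate 1. CAV1, the coat protein of caveolae, fell by 1.01 in RNA, and the tubulins TUBB and TUBA1A by 0.94 and 0.85, whereas TUBB3 rose by 0.98. Tubulin genes are near copies of each other, and how shared reads were assigned is not given in the sources used here. FSCN1, the actin bundler fascin and a member of the lung metastasis list, fell by 1.54 in RNA and 1.17 in footprints. Of the 22 genes on that list 6 were tested, and 5 fell and 1 rose in RNA (median -0.39). In footprints FSCN1 alone passed, and the list median was -0.12. Of 15 histone and chromatin genes 11 fell and 3 rose in RNA (median -0.31), led by HMGA1, a DNA-bending protein, at -0.78. In footprints of that list 7 fell and 1 rose (median -0.17).

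Signalling genes split within their lists. Of 25 genes of receptor tyrosine kinase, RAS and MAPK signalling, 19 fell and 5 rose in RNA (median -0.40). In footprints 8 fell and 4 rose, with a median of -0.02 beside -0.04 for all transcripts. In RNA the feedback inhibitor SPRY4 fell from 10043, 9867 and 9882 to 3344, 3570 and 3315 (fall by 1.54, SE 0.04), and FOSL1, a partner of JUN, fell by 0.91. The immediate early genes EGR1 and FOS rose by 2.27 and 1.91 in RNA and by 1.45 and 1.39 in footprints, and DUSP1, a MAPK phosphatase, by 1.71 in RNA. Of 20 integrin and matrix genes, 8 rose and 7 fell in RNA (median 0.09), with ITGB1, an integrin subunit, higher by 0.77 and ITGB4 and FN1, another integrin subunit and fibronectin, lower by 1.31 and 1.41. Their footprints rose for 8 and fell for 1, and rose for 5 without control replicate 1 or without knockdown replicate 2. SNAI1, a transcription factor of epithelial to mesenchymal transition, rose by 1.55 in RNA, and its footprints went from 1.47, 4.98 and 3.22 to 25.5, 20.3 and 24.8. The control footprints of SNAI1 were all under the minimum of 10, so it was tested only because of its knockdown values. Of 12 TGF-beta and YAP pathway genes 5 rose and 4 fell in RNA (median -0.03), among them WWTR1, the coactivator TAZ, at -1.05 and CCN2, a matricellular target of YAP, at 1.08. In footprints of that list 3 rose and 2 fell (median 0.29). NOTCH2, a receptor of cell to cell signalling, rose by 0.67 in RNA and 1.94 in footprints.

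RNA-binding proteins related to HNRNPC changed modestly. Of 23 other hnRNP and U2AF genes, 15 fell and 4 rose in RNA (median -0.16), although under quantile normalization 8 rose and 7 fell. HNRNPUL2 and PCBP1 fell by 0.57 and 0.65, and HNRNPDL and HNRNPH3 rose by 0.55 and 0.38. In footprints 9 fell, but only 2, 3, 5, 3 and 4 did without control replicates 1, 2 and 3 and knockdown replicates 1 and 2. Of 12 SR splicing factors, 7 fell and none rose in RNA (median -0.13), whereas under each of the other scalings 4 rose and 2 fell. Of 18 cleavage and polyadenylation factors, 6 rose and 4 fell in RNA (median 0.03), but 9 rose and 2 fell under TMM scaling or with medians set to 0, and 9 rose and 3 fell under quantile normalization. Their footprints rose for 5 and fell for 2 (median 0.09). CSTF3, a subunit of the cleavage stimulation factor, rose by 1.12 in RNA and 0.96 in footprints. CPSF2 and CPSF3, of the complex that cuts pre-mRNA, rose by 0.40 and 0.44, and the poly(A) polymerase PAPOLA fell by 0.29.

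Of 20 genes of nonsense-mediated decay and the exosome, 10 rose and 6 fell in RNA (median 0.18). In footprints 6 rose and 3 fell (median 0.06), and 1 fell without control replicate 3. DIS3, a nuclease of the exosome, rose by 0.77 in RNA. SMG1, the kinase that starts nonsense-mediated decay, had RNA of 5727, 5755 and 5788 against 8214, 7972 and 8269, a rise by 0.50 (SE 0.04). SMG1 footprints were 82.5, 95.6 and 84.9 against 64.7, 62.5 and 57.1, a fall by 0.51 (SE 0.13), and efficiency fell by 1.01 (SE 0.10, limma adjusted p = 4.941e-05).

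The translation machinery was listed by component. Of 34 initiation and elongation factors, 16 rose and 14 fell in RNA (median -0.004), but 17 rose and 9 fell under TMM scaling and 20 rose and 6 fell under quantile normalization, so their near-even split rests on the deposited scaling. EIF3C, a core subunit of eIF3, had RNA of 8077, 8204 and 7978 against 1648, 1723 and 1784, and fell by 2.23 (SE 0.05) in RNA and 1.97 in footprints, in RNA the largest fall after HNRNPC among named transcripts. EIF3C has a near-identical copy, EIF3CL, so its value is uncertain. EIF3G and EIF2S3, subunits of eIF3 and eIF2, fell by 1.16 and 1.10, and EIF5, which makes eIF2 hydrolyse its GTP, rose by 0.83. Of 65 cytosolic ribosomal protein genes, 26 fell and 12 rose in RNA (median -0.06), but 11 fell and 28 rose under TMM scaling, so they have no direction beyond that of the scaling. In ribosomal protein footprints 2 fell and none rose, but 5 fell without control replicate 3 and 12 without knockdown replicate 3. Of 27 proteasome genes, 14 fell and 5 rose in RNA, with a median of -0.10 beside -0.11 for all transcripts, and 3 rose without control replicate 2 or without knockdown replicate 3. Under quantile normalization the proteasome split turned to 11 rises and 8 falls. In proteasome footprints 5 fell and none rose (median -0.125), but 3 fell without control replicate 1, 2 or 3 and 2 without knockdown replicate 1 or 2. EIF4A2, an RNA helicase of initiation chosen after its values were seen, had RNA of 12000, 12472 and 12138 against 16568, 17023 and 17310 and footprints of 349, 351 and 365 against 299, 304 and 299. Its efficiency fell by 0.71 (SE 0.08, limma adjusted p = 7.237e-05), but the call was lost with footprints paired to RNA by lysate (limma adjusted p = 0.05174).

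Innate immune genes gave no single direction in RNA, while more of them rose than fell in footprints. HNRNPC is known to keep Alu pairs, which can fold into double-stranded RNA, out of mature transcripts, so interferon-stimulated and double-stranded RNA sensing genes were listed. Of 34 tested, 14 rose and 11 fell in RNA (median -0.005), or 16 and 8 under TMM scaling, and 11 rose and 3 fell in footprints (median 0.18). PSMB8 and EIF2AK2, a subunit of the immunoproteasome and the kinase PKR, rose by 0.64 and 0.50 in RNA. IFIT1, which binds foreign RNA caps, fell by 1.06. Of 19 genes of cholesterol synthesis, 7 rose and 6 fell in RNA (median -0.04), or 9 and 4 under TMM scaling, with HMGCS1 lower by 0.96 and FASN higher by 0.47. Of 12 iron and polyamine genes 4 rose and 6 fell (median -0.11), or 7 and 5 under quantile normalization, and the ferritin light chain FTL and the polyamine enzyme ODC1 rose by 1.02 and 1.33.

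Among the 980 named transcripts, efficiency rose most for UCP2, a carrier of the inner mitochondrial membrane whose mRNA has an upstream reading frame. UCP2 RNA was 1806, 1547 and 1444 in control and 2159, 2022 and 2146 in knockdown cells, and its footprints were 6.63, 4.13 and 4.33 against 31.3, 34.3 and 38.1. Footprints thus rose 5.98-fold on the log2(value + 1) scale against 1.32-fold for RNA, and efficiency rose by 2.17 (SE 0.22, limma adjusted p = 5.119e-05). The control footprints of UCP2 were all under the minimum of 10, so it was tested only because of its knockdown values. The size of its rise rests on those low control values. QARS1, which loads tRNA with glutamine, had RNA of 3618, 3565 and 3721 against 4055, 4406 and 3864. QARS1 footprints went from 80.5, 87.0 and 87.8 to 175, 187 and 182, and efficiency rose by 0.91 (SE 0.10, limma adjusted p = 6.919e-05).

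Other rises of efficiency came with RNA changes of either direction. BMP4, a secreted growth factor, had RNA of 2984, 3099 and 3153 against 1525, 1721 and 1551, but footprints of 39.1, 34.9 and 40.9 against 35.4, 43.2 and 50, which overlapped. BMP4 efficiency rose by 1.09 (SE 0.16, limma adjusted p = 0.001039). In RXRA, a nuclear receptor, RNA likewise fell by 1.10 while the footprint difference of -0.25 did not pass, and efficiency rose by 0.85, but the call was lost with footprints paired to RNA by lysate (limma adjusted p = 0.08423). In TGFBR2, a receptor for TGF-beta, RNA fell by 0.95 while the footprint difference of 0.09 did not pass. Its efficiency rose by 1.03, at adjusted p of 0.07842, 0.08632, 0.05169 and 0.08251 without control replicates 1 and 2 and knockdown replicates 1 and 2, and of 0.1194 with the lysate pairing.

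MMP14, a membrane-bound matrix protease, fell by 0.50 in RNA, and its efficiency rose by 1.07 (SE 0.20, limma adjusted p = 0.006365). IGF2BP3, an RNA-binding protein of fetal tissue and cancer, fell in both assays, by 1.74 in RNA and 0.86 in footprints, and its efficiency rose by 0.88 (SE 0.17), at an adjusted p of 0.05268 without control replicate 2 and of 0.05463 with the lysate pairing. ADAM9, a membrane protease, rose in both assays, by 0.32 in RNA and 1.36 in footprints. Its efficiency rose by 1.03, at adjusted p of 0.05627, 0.0897 and 0.1045 without control replicate 3 and knockdown replicates 1 and 2, and of 0.08399 with the lysate pairing.

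Among the named transcripts, efficiency fell most for FANCD2, SHMT2 and WRN. FANCD2 RNA was 922, 914 and 1003 against 635, 617 and 566, and its footprints were 56.0, 54.4 and 68.2 against 15.8, 9.14 and 12.9, so efficiency fell by 1.53 (SE 0.24, limma adjusted p = 0.001439). GMPS, the last enzyme of GMP synthesis, had RNA of 2863, 2714 and 3018 against 1382, 1479 and 1497 and footprints of 157, 171 and 153 against 36.4, 36.6 and 26.0. GMPS efficiency fell by 1.28 (SE 0.16, limma adjusted p = 0.0001868). MVD, a decarboxylase of the mevalonate pathway, had footprints of 54.7, 37.8 and 49.8 against 13.8, 15.2 and 14.6, and its efficiency fell by 1.26 (SE 0.25, limma adjusted p = 0.007308). In each of these 3 genes both assays separated the groups.

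Calls of 4 further falls in efficiency were lost when single replicates were left out, and also with footprints paired to RNA by lysate, where the adjusted p was 0.08086 for WRN, 0.06568 for ATF3, 0.1599 for EIF4EBP2 and 0.1359 for KMT2C. WRN, a helicase of DNA repair, fell by 1.39, and its adjusted p was 0.07573, 0.08568, 0.072 and 0.07855 without control replicates 1 and 2 and knockdown replicates 1 and 2. ATF3 fell by 1.37, with 0.08238 without control replicate 3 and 0.08288, 0.07056 and 0.09102 without knockdown replicates 1, 2 and 3. EIF4EBP2, an inhibitor of cap-dependent initiation, fell by 1.18, with 0.07985, 0.1138, 0.06391 and 0.1117 without control replicates 1 and 3 and knockdown replicates 1 and 3. KMT2C, a histone methyltransferase, fell by 1.02, with 0.06579, 0.05243, 0.09682, 0.07776 and 0.08749 without control replicates 1, 2 and 3 and knockdown replicates 1 and 2.

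**Figure D4:**
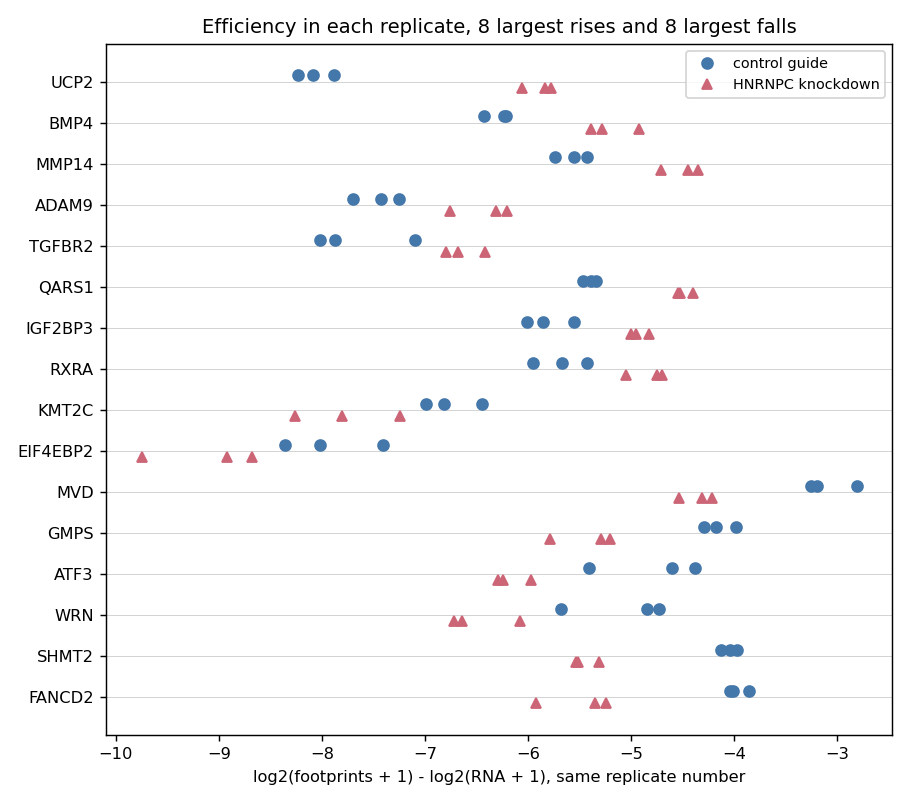
Translation efficiency as log2(footprints + 1) minus log2(RNA + 1) in each replicate (x axis) for the named transcripts with the 8 largest rises and 8 largest falls; circles are control guide and triangles knockdown replicates, with footprints and RNA matched by replicate number. The groups do not overlap for any of the 16, which the rule for naming them required, and UCP2 shows the largest shift.

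The 452 transcripts with changed efficiency differed in what RNA and footprints did. Of the 308 rises, 145 had lower RNA with footprints that did not pass, 81 had lower RNA and lower footprints, and 35 had higher footprints with RNA that did not pass. Both were higher in 29 of the rises, and in 14 RNA was lower and footprints higher. Of the 144 falls, 52 had lower RNA and lower footprints, 36 had higher RNA with footprints that did not pass, and 22 had lower footprints with RNA that did not pass. In 21 falls, SHMT2 and SMG1 among them, RNA was higher and footprints lower.

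Markers of the line were present in both groups, with 7 of 10 mesenchymal and MDA-MB-231 markers tested, of which EGFR rose by 0.76 and VIM fell by 0.52 in RNA. Of 12 luminal markers 3 were tested, of 8 immune markers 1, CD68, which cancer lines also express and which rose by 0.81, and of 5 endothelial markers none. The markers not tested were either unnamed or under the minimum, so these counts set no level for other cell types.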

How the data were processed

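The authors deposited 1 value per transcript and library, a normalized signal made from reads, in a table of 6 RNA and 6 footprint columns, per the file headers. The submitters' processing notes name hg38, Bowtie2 2.3.5, SAMtools, UMI-tools and cutadapt 2.3, without their roles. Scaling, transcript annotation and treatment of shared reads: not given in the sources used here. RNA values were whole multiples of 1 step per library (100% within 0.05 of a whole number), which implies 23300000 to 28300000 reads, while footprint values had no common step and their depth is unknown. The lowest RNA value was 5.55, so transcripts absent from RNA lie outside the table. No count model was run.

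Values were taken as log2(value + 1), which understates changes of low values. The minimum mean was taken over both groups, so a transcript low in control cells could pass through its knockdown values, and the reverse. RNA and footprints were each tested with limma 3.58.1 in R 4.3.3, with a variance trend, and efficiency as the assay by knockdown interaction over 12 libraries. The efficiency model gave each transcript a variance shared by both assays, although footprints spread more than RNA. It also took the 12 libraries as independent, although RNA and footprints came from the same lysates. Efficiency SEs came out below footprint SEs for SMG1 and SHMT2, and may be too small. Two-sided p-values were adjusted over 8283 transcripts (Benjamini-Hochberg), threshold 0.05. The tests were tested on simulated data with known changes. No 2 columns were identical.

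Of 1593 transcript IDs recalled for 1367 genes, 1081 were in the table and 980 were tested. IDs were recalled in rounds, with the list of IDs in the table known. For HNRNPC 11 IDs were recalled and 1 was present. Of 149 genes with several recalled IDs and at least 1 in the table, 0 had a second one, after 2 conflicting assignments had been dropped. Named genes were HNRNPC and PABPC4, the 8 largest rises and 8 largest falls per readout among named transcripts past the threshold with groups that do not overlap, and up to 4 members per list with the smallest adjusted p; a few genes and 1 list that the rule names are not reported here. Members, lists and motifs were chosen with earlier results of these data known. Alternatives were other scalings, pseudocounts, filters and variance models, replicate and lysate blocks, and leaving out each replicate.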

Additional observations from a re-analysis of the deposited data

How the results depend on the processing

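Counts of RNA and footprint changes stayed within 1.5 times of the reported ones under every alternative run except a minimum mean of 50, where fewer transcripts were tested and 3101 and 1844 passed. Leaving out each replicate gave 5738 to 5931 for RNA, 2417 to 2754 for footprints and 178 to 370 for efficiency. The efficiency count was 244 with no variance trend and 75 with footprints paired to RNA by lysate, where 1539 had an unadjusted p under 0.05; the cause was not tested. TMM scaling, medians set to 0 and quantile normalization moved the higher share of efficiency calls from 68.1% to 43.1%, 44.8% and 41.8%, and that of RNA calls from 38.2% to 50.2%, 49.6% and 51.3%. The called values of named genes were followed through every alternative that tested them. Direction and threshold were kept by 131 of 138 in RNA, 80 of 106 in footprints and 10 of 35 in efficiency. The 10 were HNRNPC, UCP2, QARS1, BMP4, MMP14, SHMT2, FANCD2, GMPS, MVD and SMG1. Of these, UCP2, BMP4, MMP14, FANCD2 and MVD fell under the minimum mean of 50 and were not tested in that alternative. Some genes in the RNA and footprint counts were not tested there either. Under quantile normalization the RNA change of EIF4EBP2, SRSF3 and SRSF6 turned from a fall to 0.0254, 0.0175 and 0.0245, and the footprint change of MTHFD2, which had not passed, ran from -0.1297 to 0.0353 when replicates were left out, the latter without control replicate 1, and that of TGFBR2, which had not passed either, from -0.0653 without control replicate 2 to 0.3193 without control replicate 3. Footprint depth is unknown, and low footprint values limit efficiency most.

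Same-numbered control and knockdown libraries did not deviate together (correlations of -0.018, -0.009 and -0.011 in RNA and of -0.084, 0.02 and -0.106 in footprints). The main tests therefore did not pair them, although such correlations cannot exclude that same-numbered libraries were handled together. With the replicate block 6052 RNA, 2853 footprint and 183 efficiency changes passed. By the same measure, RNA and footprint libraries of the same number correlated at 0.126, 0.076 and 0.011 in control cells. In knockdown cells the values were 0.015, 0.064 and 0.068. RNA and footprints of different numbers were not compared, so the match of lysates rests on the replicate numbers alone.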
